A study of Mus musculus with 6 samples.

Results

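The ribosomal protein genes of the cytosolic ribosome were examined in mRNA microarrays of mouse spleen. Members were chosen by symbol alone: Rpl or Rps followed by a number, with or without a letter or l suffix, together with Rplp0, Rplp1, Rplp2 and Rpsa. Kinases of the Rps6k family, Rps19bp1 and pseudogenes with a ps symbol were left out. This gave 85 genes with 174 probes, of 20659 genes with a symbol on the arrays. Of the 85 genes, 81 were bright enough to be tested. The other 4 were Rpl3l, Rpl10l, Rpl39l and Rpl7l1, whose probes were well above background on at most 1 array of either group.

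All samples were spleens of male ICR mice, an outbred strain, 8 weeks old on arrival, which had been given cyclophosphamide at 40 mg/kg in the abdomen for 5 days. Cyclophosphamide is an alkylating drug that kills dividing cells, lymphocytes among them. The SA-H group (3 arrays, numbered 4, 5 and 6) then received schizandrol A, a lignan of Schisandra fruit, by gavage at 1000 mg/kg per day for 4 weeks. The MOD group (3 arrays, numbered 1, 2 and 3) received distilled water for the same time. The sample labels, however, place the SA-H arrays at 28 days and the MOD arrays at 5 days. Where those labels hold, treatment and day of sampling cannot be told apart. No mice without cyclophosphamide are among these arrays, and nothing states that each array came from a separate mouse, so that the p-values measure the spread between these arrays only.

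The eukaryotic ribosome is built from a small subunit, which reads the mRNA, and a large subunit, which joins amino acids. Their proteins are made in matched amounts, since a ribosome needs each of them. Most of their mRNAs begin with a C followed by a run of pyrimidines, the 5' terminal oligopyrimidine or TOP motif, through which the mTOR kinase controls their translation as a group. When assembly fails, free Rpl5 and Rpl11 bind Mdm2 and stabilise p53. In humans, loss of certain single ribosomal protein genes causes Diamond-Blackfan anemia, a failure of red cell production. In spleen, activated lymphocytes and red cell precursors are known for high ribosome production.

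The level of a gene is given throughout as the log2 of its processed signal relative to the 75th percentile of the array, so that 0 is the signal of the 75th percentile spot. That percentile lay at 220, 868 and 433 signal units on SA-H arrays 4, 5 and 6, and at 626, 840 and 599 on MOD arrays 1, 2 and 3. SA-H array 4 thus had the lowest value of the 6. Array-to-array correlations over the genes and targets tested, with 1 probe each, ran between 0.838 and 0.975. The lowest was between SA-H array 4 and MOD array 3. Between the groups, a gene was called higher or lower at an unadjusted p under 0.05 in limma. Of 14818 genes and unnamed targets, 1730 (11.7%) were called higher and 1801 (12.2%) lower in SA-H than in MOD. At an adjusted p under 0.05 the count was 0. The scanning days held both groups on 2 days, with SA-H array 6 beside MOD arrays 1 and 3 on the first, and SA-H array 4 beside MOD array 2 on the second, while SA-H array 5 was scanned alone on another day.

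Of the 81 ribosomal protein genes tested, 14 (17.3%) were called higher in the SA-H group, against 11.7% of all genes tested, and 1, Rplp1, was called lower, against 12.2%. The log2 change was above 0 for 73 members (90.1%), against 48.8% of all genes. The median change of the members was 0.54, and that of all genes was -0.02. Most changes were small, and 53 of the 81 lay between 0.3 and 1 on the log2 scale. A fold change of at least 2 with an unadjusted p under 0.05 was met by 7 members that were higher and by 0 that were lower, against 8.75% and 4.93% of all genes. In limma, 0 members passed an adjusted p of 0.05, and the smallest value was 0.068 (Rps3). The median fell to 0.24, and the count of higher calls to 4, when SA-H array 4 was left out. Single arrays of either group decided the count, which was 31 without SA-H array 5, 3 without MOD array 1 and 2 without MOD array 3. With quantile normalization between arrays the median was 0.012, with 2 higher calls, beside a median of -0.079 over all genes. The size of the members' change and the number of calls thus depend on how arrays are scaled.

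**Figure D1:**
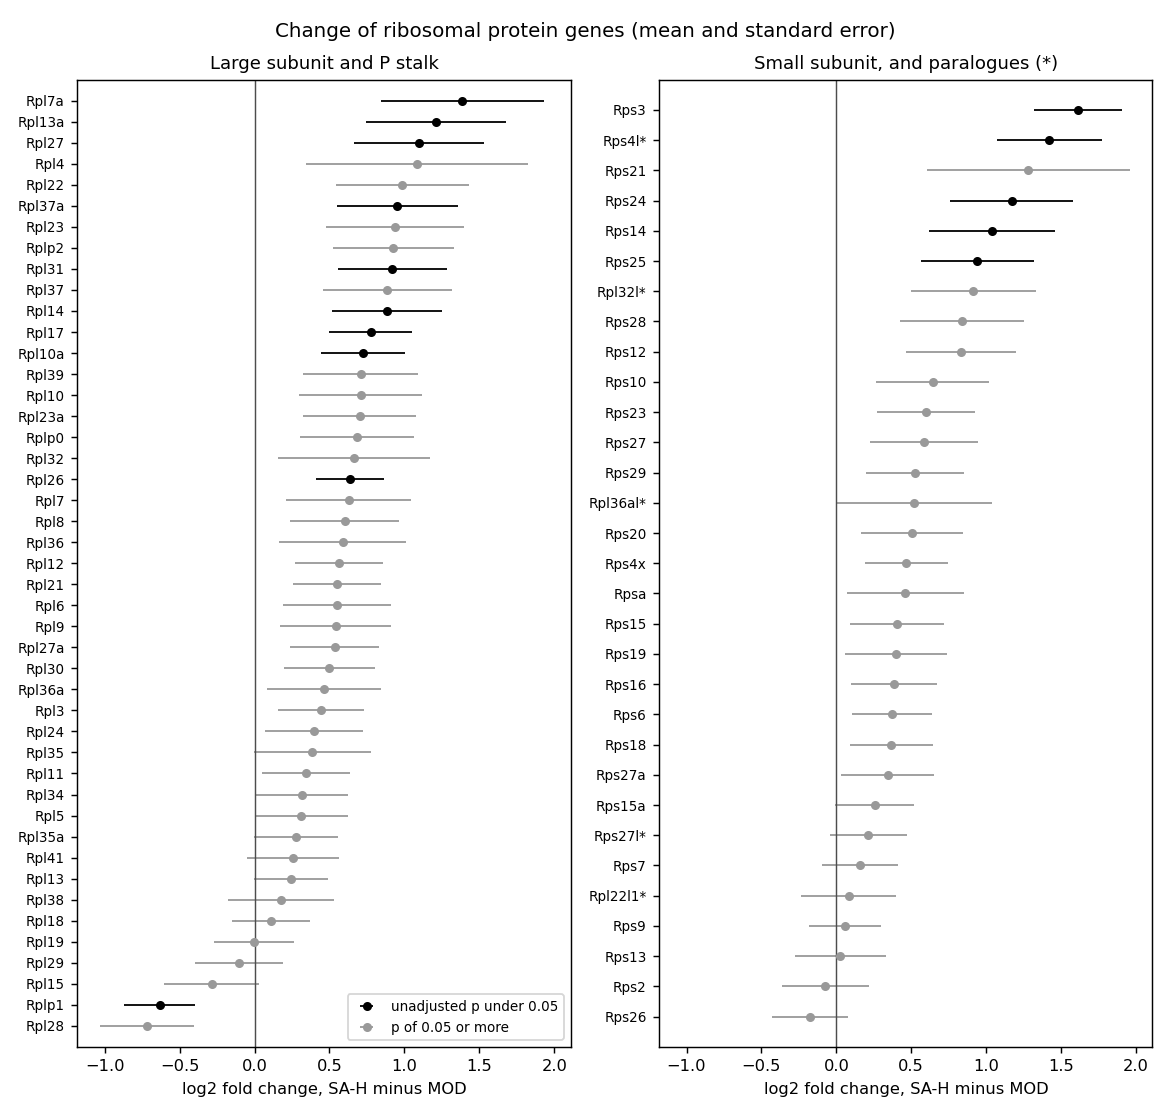
Log2 fold change of 76 of the 81 tested members, SA-H minus MOD (horizontal axis), with genes in rows ordered by change. Points are fitted means, bars are standard errors, and black marks the 15 genes with an unadjusted p under 0.05. Most points lie to the right of 0, with Rps3 highest at 1.61 and Rpl28 lowest at -0.72.

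The members moved together on single arrays rather than evenly across the groups. After subtracting the mean of each gene over the 6 arrays, the median of the members was 0.85, -0.20 and 0.17 on SA-H arrays 4, 5 and 6. It was -0.19, -0.14 and -0.39 on MOD arrays 1, 2 and 3. SA-H array 5 therefore lay within the range of the MOD arrays, and SA-H array 4 stood above all others. The highest of the 6 levels was on SA-H array 4 for 68 of the 81 members (84.0%), against 36.1% of all genes tested. It was on SA-H array 6 for 7 members, on SA-H array 5 for 1 and on a MOD array for 5. The lowest level was on MOD array 3 for 41 members. The SD between arrays of a group had a median of 0.53 in SA-H and 0.24 in MOD over the members, beside 0.42 and 0.27 over all genes.

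Other bright probes moved in a like way on these arrays. The median signal of the members, on the log2 scale over the 75th percentile, was 7.25, 6.25 and 6.62 on SA-H arrays 4, 5 and 6, and 6.24, 6.17 and 6.06 on MOD arrays 1, 2 and 3. For the brightest 1% of probes of each array, with the members taken out (307 to 332 probes), it was 7.87, 6.31 and 7.02 on the SA-H arrays and 6.42, 6.55 and 6.35 on the MOD arrays. Both series were highest on SA-H array 4, next on SA-H array 6, and close together on the other 4 arrays. Without any scaling, the median signal of the members was 33550, 66116 and 42517 units in SA-H and 47282, 60518 and 39940 in MOD, and these ranges overlap. The part of array brightness in the members' rise was not tested.

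**Figure D2:**
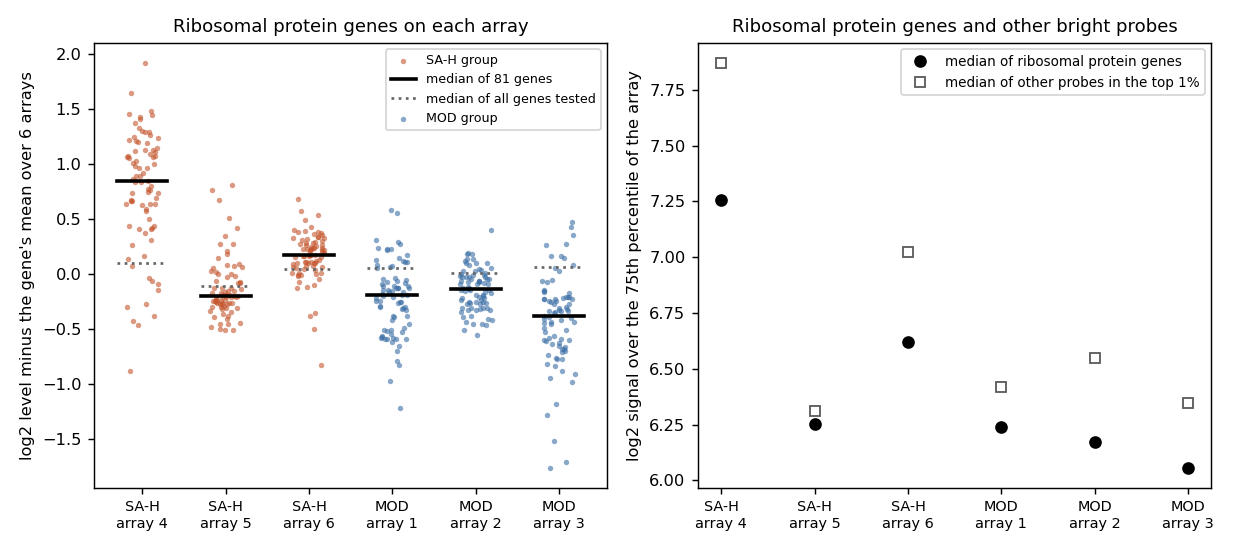
Left, each point is 1 member on 1 array, as log2 level minus the mean of the gene over 6 arrays, with a solid line at the members' median and a dotted line at the median of all genes tested. Right, log2 signal over the 75th percentile of the array for the median of the members (filled) and of the other probes in the top 1% (open). SA-H array 4 is highest in both panels, with member medians of 0.85 on the left and 7.25 on the right.

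Rank within an array does not depend on scaling. The members' probes were among the brightest spots, and 76 to 78 of the 81 lay in the top 5% of the probes of each array. Their median percentile was 99.2, 99.4 and 99.2 in SA-H and 99.3, 99.1 and 99.2 in MOD. These ranges overlap, but at the top of an array rank leaves little room to move. Members of lower rank could move, and Rps3 lay at percentiles 97.5, 98.1 and 97.7 in SA-H and 95.3, 95.9 and 93.6 in MOD. Rps4l lay at 76.0, 70.2 and 71.7 in SA-H and 60.3, 62.6 and 66.0 in MOD, so that the groups of these 2 genes did not overlap by rank. They are the 2 members with the largest changes. Rps19 and Rps27l, also of lower rank, overlapped between the groups. Rpl28 was lower in SA-H without overlap, at 93.8, 96.9 and 96.9 against 97.8, 97.0 and 98.0 in MOD. So was Rplp1, at 97.0, 98.0 and 98.1 against 98.9, 98.6 and 99.2. As a share of the total signal of the array, the 81 probes took 6.31%, 6.14% and 5.46% in SA-H, against 5.08%, 5.42% and 4.80% in MOD. By this measure the 3 SA-H arrays lay above the 3 MOD arrays, narrowly so for SA-H array 6 and MOD array 2. On SA-H array 5, Rps21 and Rpl36al had no value, their spots being outliers. The share, median percentile and top 5% count of that array leave these 2 genes out.

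Within each scanning day the members were mostly higher in SA-H. On the first day the median change was 0.47, with 74 of 81 members above 0. On the second day it was 1.06, again with 74 above 0. The median of all genes was 0.02 and 0.09 on these days. Other probes in the top 1% were higher too. On the first day their median was 7.02 on SA-H array 6, against 6.42 and 6.35 on MOD arrays 1 and 3. On the second day it was 7.87 on SA-H array 4, against 6.55 on MOD array 2. That day sets 1 array against 1 array, and the share of all genes above 0 within a day was not computed. In a fit with the day of scanning as a block, in which SA-H array 5 carries no weight, 38 members were called higher and 0 lower, against 18.1% of all genes called higher. In that fit 6 members passed an adjusted p of 0.05, namely Rps3, Rps4l, Rps24, Rpl31, Rpl27 and Rps14, as did 7.93% of all genes tested. The single array left out there is the SA-H array on which the members were lowest.

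Among the 30 proteins of the small subunit, 4 (13.3%) were called higher, near the 11.7% of all genes. None was called lower, against 12.2% of all genes, and the median change was 0.49. Rps3, which lines the channel where mRNA enters the ribosome, had levels of 5.53, 5.13 and 5.14 in SA-H and 3.80, 3.99 and 3.17 in MOD. The groups were far apart, and the change was the largest of the family, at 1.61 ± 0.29 (SE, 3.06-fold, adjusted p = 0.068). The call held under 18 alternatives and was lost in 1, the deposited value table, whose columns could not be matched firmly to the arrays. Among the 18, the fit of every probe by itself reads the same brightest probe again and is no separate check. A dimmer second probe of Rps3 had a change of 0.34 and was not called. Rps24, a Diamond-Blackfan anemia gene, had 8.42, 6.93 and 7.39 in SA-H and 6.47, 6.68 and 6.08 in MOD. The groups did not overlap, with a change of 1.17 ± 0.41 (SE, adjusted p = 0.16).

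Rps14, whose loss on human chromosome arm 5q impairs red cell maturation, had 8.28, 7.03 and 7.28 in SA-H and 6.18, 7.11 and 6.19 in MOD. MOD array 2 lay above SA-H array 5, and the change was 1.04 ± 0.42 (SE, adjusted p = 0.20). Rps25, needed for initiation at several viral internal entry sites, had 6.42, 6.01 and 5.49 in SA-H and 4.52, 5.63 and 4.94 in MOD. Here SA-H array 6 lay below MOD array 2, and the change was 0.94 ± 0.38 (SE, adjusted p = 0.19).

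The other 26 small subunit genes did not pass the test. Rps6, the substrate of the S6 kinases downstream of mTOR, had 6.24, 5.91 and 6.65 in SA-H and 5.82, 5.99 and 5.87 in MOD, with the groups overlapping at SA-H array 5 (change 0.37 ± 0.27, SE). Rps19, the gene most often mutated in Diamond-Blackfan anemia, had 1.60, 2.40 and 1.51 in SA-H and 1.71, 1.61 and 1.00 in MOD (change 0.40 ± 0.34, SE). Only SA-H array 5 stood out for Rps19, the array on which most members were not raised. The 1 probe of Rps19 was far dimmer than the family, at -5.66 to -3.85 relative to the members' median of each array. Rps21 had a change of 1.28 that rests on 5 arrays, since its spot on SA-H array 5 was an outlier. Changes between 0 and 0.84 were found for Rps28, Rps12, Rps10, Rps23, Rps27, Rps29, Rps20, Rps4x, Rpsa, Rps15, Rps16, Rps18, Rps27a, Rps15a, Rps7, Rps9 and Rps13. Rps2 and Rps26 were below 0, at -0.07 and -0.18.

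The large subunit, with the P stalk apart, had 43 genes tested, with a median change of 0.55. Of these, 9 (20.9%) were called higher and 0 lower, against 11.7% and 12.2% of all genes. Rpl7a, a protein that binds rRNA on the large subunit, had 7.16, 6.13 and 5.93 in SA-H and 5.17, 5.90 and 4.00 in MOD. The groups were separated by a narrow gap, and MOD array 3 was far below the rest (change 1.39 ± 0.54, SE, adjusted p = 0.18). The same drop on MOD array 3 was seen for Rpl13a, known also for its part in an interferon-gamma-activated inhibitor complex of translation, with 7.10, 6.15 and 6.21 in SA-H and 5.62, 5.86 and 4.36 in MOD (change 1.21 ± 0.47, SE, adjusted p = 0.18). Rpl4, which did not pass the test, had its lowest level there too, with 7.01, 6.18 and 4.53 in SA-H and 5.33, 5.54 and 3.60 in MOD.

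Rpl27 had 7.76, 6.53 and 6.72 in SA-H and 5.66, 6.59 and 5.47 in MOD, with MOD array 2 level with SA-H array 5. Rpl31, which sits by the exit of the peptide tunnel, had 7.79, 6.48 and 7.18 in SA-H and 6.11, 6.50 and 6.09 in MOD. Both are Diamond-Blackfan anemia genes of human, and their changes were 1.10 ± 0.44 and 0.92 ± 0.36 (SE). The overlap in both came from MOD array 2 and SA-H array 5.

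Rpl37a, a zinc-binding protein, had 8.49, 6.98 and 7.44 in SA-H and 6.56, 6.92 and 6.56 in MOD. Rpl14 had 7.77, 6.38 and 6.91 in SA-H and 6.12, 6.12 and 6.17 in MOD. In both genes the groups did not overlap, though SA-H array 5 was within 0.3 of the highest MOD array, and the changes were 0.95 ± 0.40 and 0.89 ± 0.37 (SE). Smaller and more even changes were seen for the last 3 called genes. Rpl17, which lies near the tunnel exit, had 6.65, 6.21 and 6.33 in SA-H and 5.44, 6.03 and 5.40 in MOD (change 0.77 ± 0.28, SE).

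Rpl10a, a protein of the L1 stalk, had 7.86, 7.09 and 7.49 in SA-H and 6.52, 6.84 and 6.90 in MOD (change 0.72 ± 0.28, SE). Rpl26, known to raise translation of the p53 mRNA, had 5.96, 5.56 and 5.83 in SA-H and 5.14, 5.12 and 5.19 in MOD (change 0.64 ± 0.23, SE). By the brightest probe, all 3 SA-H arrays were above all 3 MOD arrays for Rpl17, Rpl10a and Rpl26. A further probe of Rpl10a had a change of 0.04, and further probes of Rpl26 had 0.06 and 0.32. None of these further probes was called, and their groups overlapped. Over the family, the groups did not overlap with SA-H higher for 17 members (21.0%), against 13.1% of all genes. They did not overlap with SA-H lower for 2 members, Rplp1 and Rpl28, against 20.3%.

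**Figure D3:**
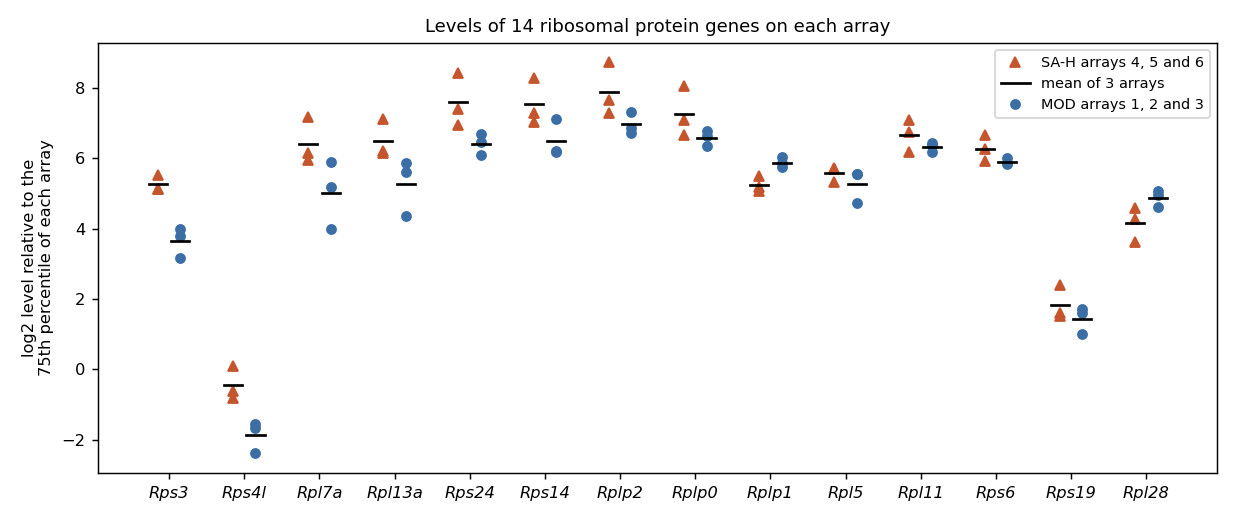
Level on each array (log2 of the signal relative to the 75th percentile of the array, vertical axis) of 14 named members, with SA-H arrays 4, 5 and 6 as triangles on the left and MOD arrays 1, 2 and 3 as circles on the right of each gene, and a line at the mean of 3 arrays. Rps3 and Rps4l show the widest gaps between the groups (changes of 1.61 and 1.42), while Rplp1 and Rpl28 lie lower in SA-H.

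Of the other 34 large subunit genes, which did not pass the test, Rpl22, needed for the development of alpha-beta T cells in mice, had 8.40, 6.69 and 7.24 in SA-H and 6.36, 6.71 and 6.29 in MOD (change 0.99 ± 0.44, SE). Rpl5 had 5.73, 5.70 and 5.32 in SA-H and 5.55, 5.54 and 4.72 in MOD. Rpl11 had 7.08, 6.19 and 6.73 in SA-H and 6.38, 6.17 and 6.42 in MOD. For these 2 partners of the 5S rRNA the groups overlapped, with changes of 0.31 ± 0.31 and 0.34 ± 0.29 (SE). With Rpl23 and Rps7, which also bind Mdm2, they form a list of 4 genes, of which 0 were called in either direction, with a median change of 0.33.

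Changes between 0.11 and 1.08 were found for Rpl4, Rpl23, Rpl37, Rpl39, Rpl10, Rpl23a, Rpl32, Rpl7, Rpl8, Rpl36, Rpl12, Rpl21, Rpl6, Rpl9, Rpl27a, Rpl30, Rpl36a, Rpl3, Rpl24, Rpl35, Rpl34, Rpl35a, Rpl41, Rpl13, Rpl38 and Rpl18. Rpl19 and Rpl29 lay between -0.10 and 0. Rpl15, a Diamond-Blackfan anemia gene, had 5.04, 5.27 and 5.67 in SA-H and 6.05, 5.15 and 5.63 in MOD (change -0.29 ± 0.32, SE). Rpl28 had 3.63, 4.26 and 4.59 in SA-H and 5.07, 4.62 and 4.95 in MOD. All SA-H arrays were below all MOD arrays for Rpl28, with SA-H array 4 lowest, but the change of -0.72 ± 0.31 (SE, adjusted p = 0.22) missed the threshold.

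The P stalk, which recruits and activates the elongation factors, consists of Rplp0 bound to dimers of Rplp1 and Rplp2. Rplp0 had 8.04, 6.67 and 7.08 in SA-H and 6.62, 6.78 and 6.34 in MOD (change 0.69 ± 0.38, SE). Rplp2 had 8.72, 7.29 and 7.65 in SA-H and 6.86, 7.30 and 6.73 in MOD (change 0.93 ± 0.40, SE). Neither passed the test, and in both MOD array 2 was at or above SA-H array 5. Rplp1 went the other way, with 5.17, 5.07 and 5.48 in SA-H and 5.85, 5.74 and 6.02 in MOD. Its groups did not overlap, and its change was -0.63 ± 0.24 (SE, adjusted p = 0.17), the only lower call among the members. Rplp1 has 1 probe on the array, so no other probe bears on its value.

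When each array was centred on the median of the members, so that a gene is set against the rest of the family, Rps3 and Rps4l were called higher, at 1.06 and 0.87. Rplp1, Rpl28 and Rps26 were called lower, at -1.18, -1.27 and -0.73. The other 76 members did not differ from the family median at this threshold. The smallest adjusted p in this fit was 0.096 among the members.

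Paralogues whose symbol ends in l, or in l and a number, number 9, of which 5 were bright enough to be tested. Rps4l, which RefSeq lists as a transcribed pseudogene related to Rps4x, had 0.09, -0.81 and -0.62 in SA-H and -2.38, -1.67 and -1.56 in MOD. The groups were well apart (change 1.42 ± 0.35, SE, 2.68-fold, adjusted p = 0.087), and Rps4x itself had a change of 0.47. Rpl32l had 7.73, 6.30 and 6.83 in SA-H and 6.28, 6.29 and 5.55 in MOD (change 0.91 ± 0.42, SE). SA-H array 5 was barely above MOD array 2.

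Rpl22l1, a paralogue that can take the place of Rpl22, had 5.15, 4.13 and 4.59 in SA-H and 4.75, 4.52 and 4.36 in MOD (change 0.08 ± 0.32, SE). Rps27l, a p53-induced paralogue of Rps27, had 3.26, 2.82 and 2.70 in SA-H and 2.65, 2.91 and 2.57 in MOD (change 0.21 ± 0.26, SE). Rpl36al had 6.03 and 4.40 on SA-H arrays 4 and 6, with array 5 missing as an outlier, and 4.79, 4.34 and 4.95 in MOD (change 0.52 ± 0.52, SE). The groups of these 3 genes overlapped. Rpl3l is known from muscle, Rpl10l and Rpl39l from testis, and none of them gave a usable signal in these spleens.

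Of the 21 members that are Diamond-Blackfan anemia genes of human, 4 were called higher (Rps24, Rpl26, Rpl31 and Rpl27) and 0 lower, with a median change of 0.53. This share, 19.0%, stands beside 17.3% for all tested members and 11.7% for all genes tested. Ribosomal proteins with other names, which the symbol rule does not take, included Fau, with a change of 0.62, and Rack1, with 0.60, and neither was called. Rps3a1, outside the rule for its suffix, was called higher at 0.96 ± 0.33 (SE).

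Several members are measured by more than 1 probe, and these did not always agree. Of 174 probes, 163 were bright enough to be tested, and 139 of these were above 0 and 24 below, with 26 called higher and 1 lower. Over the 50 genes with several such probes, the changes of the highest and the lowest probe of a gene differed by 0.51 at the median, and 11 genes had probes on both sides of 0. The values above are those of the brightest probe of each gene. The other 82 probes had a median change of 0.41, with 66 above 0.

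Probes with a mean level over 6 were the most uniform. Of those 75, 74 were above 0, with a median change of 0.56. Of 67 probes between 3 and 6, 53 were above 0 (median 0.44), and of 21 probes below 3, 12 were above 0 (median 0.20). The share above 0 was thus smallest among the dim probes.

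Rps3, the gene with the largest change, had a second probe at 0.10, -0.99 and -1.25 in SA-H and -0.95, -0.62 and -1.61 in MOD. These overlap, and the change of that probe was 0.34 ± 0.43 (SE). For Rpl13a, 2 further probes gave -0.21 and -0.17, beside 1.21 from the brightest. For Rpl27 the other probe gave -0.20, beside 1.10, and for Rpl22 it gave -0.54, beside 0.99. Rpl31 had probes at 0.85, 0.59 and -0.49, beside 0.92.

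Other genes had probes that shared a sign, though their changes differed in size. Rps24 gave 0.56 with a further probe and 1.65 with another, read on 5 arrays, beside 1.17. The 3 probes of Rplp0 gave 0.69, 0.70 and 1.03, and the 4 probes of Rpl7a gave 1.39, 1.36, 0.85 and 0.44. MOD array 3 was the lowest array for 3 of these 4 Rpl7a probes, at 4.00, 2.22 and 2.06. All 7 probes of Rpl17 were above 0, between 0.37 and 1.14. RefSeq lists 319 pseudogene loci named after 63 of the members, up to 24 for Rpl31, and a probe may also bind transcripts of such copies. Probe sequences were not used here.

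**Figure D4:**
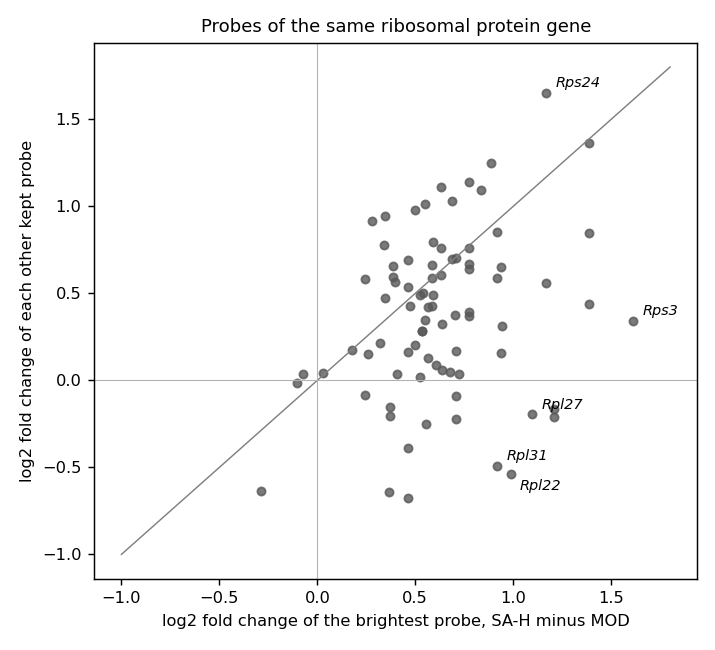
Each point is a kept probe that does not stand for its gene, with the log2 fold change (SA-H minus MOD) of the brightest probe of the same gene on the horizontal axis and its own on the vertical axis. The line marks equality. Most points lie right of and above 0, while for Rpl22, Rpl27 and Rpl31 a probe lies below 0 (-0.54, -0.20 and -0.49) although the brightest probe is at 0.92 or more.

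Start sites of members carried the pyrimidine run of TOP mRNAs more often than those of other genes. RefSeq promoters of 300 bases (250 before and 50 after the start, build GRCm38.p6) were at hand for 64 of the 85 members. A C followed by at least 7 bases that are all C or T, on the strand of the gene and within 25 bases on either side of the start, was found in 34 of them (53.1%). Over all 27025 genes with a promoter the share was 17.7%, and over the tested genes with a promoter 19.5%. The motif CCGGAAG, a binding sequence of ETS factors, was found on either strand, so also as CTTCCGG, anywhere in the 300 bases, in 25 members (39.1%), against 9.93% of all genes and 19.8% of tested genes. The pyrimidine run and the ETS motif can overlap, since both hold C and T letters.

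The following lines show the 30 bases from 10 before the annotated start on, for members high and low in the order of change, with the longest run of C followed by pyrimidines in capitals.
Rpl7a, chr2:26910797-26910826, plus strand: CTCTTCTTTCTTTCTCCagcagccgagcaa
Rpl13a, chr7:45128726-45128755, minus strand: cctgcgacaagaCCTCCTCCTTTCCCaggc
Rps24, chr14:24490668-24490697, plus strand: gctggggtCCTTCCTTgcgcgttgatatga
Rpl14, chr9:120571507-120571536, plus strand: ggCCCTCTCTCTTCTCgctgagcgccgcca
Rps6, chr4:86857348-86857377, minus strand: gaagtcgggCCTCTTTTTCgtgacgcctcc
Rpl15, chr14:18270967-18270996, minus strand: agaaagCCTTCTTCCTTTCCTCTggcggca
Rpl28, chr7:4792955-4792984, plus strand: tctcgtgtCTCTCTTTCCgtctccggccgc
Rps3, chr7:99483690-99483719, minus strand: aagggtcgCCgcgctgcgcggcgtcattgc
Rpl7a, with a change of 1.39, and Rpl15 and Rpl28, at -0.29 and -0.72, all have long runs, while Rps3, at 1.61, has none of the length searched in the printed bases. The 33 tested members with a run had a median change of 0.37, with 7 called higher, and the 27 without had a median of 0.55, with 4 called higher. The 24 members with the ETS motif had a median of 0.38 and the 36 without it 0.57. Neither motif marked the members with the larger changes.

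Lists of genes that work with the ribosomal proteins had medians nearer to 0, or below it. Their counts stand beside 11.7% called higher and 12.2% called lower over all genes. Of 15 other TOP mRNAs, which encode elongation and initiation factors and binding proteins, 1 was called higher and 0 lower, with a median change of 0.09. That gene was Eef1a1, the factor that brings aminoacyl-tRNA to the ribosome, with 7.37, 6.40 and 6.39 in SA-H and 5.85, 6.13 and 4.62 in MOD (change 1.19 ± 0.47, SE). As with Rpl7a and Rpl13a, MOD array 3 was its lowest array. Eif3e, a subunit of initiation factor 3, had a change of -1.25 ± 0.54 (SE) and missed the threshold.

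Of 13 tested genes for RNA polymerase I and rRNA transcription, 1 was called higher (Tcof1, 1.05) and 2 lower (Taf1b, -1.40, and Polr1d, -0.71), with a median of -0.27. Of 32 small subunit assembly factors, 0 were called higher and 5 lower, with a median of -0.04. They included Nop14 (-1.45), Pno1 (-0.99), Dimt1 (-0.93) and Wdr36 (-0.86), which act in the early processing or maturation of 18S rRNA. Of 33 large subunit assembly factors, 2 were called higher (Ddx51, 1.43, and Gtpbp4, 1.00) and 3 lower, among them Mdn1 (-1.53), the AAA ATPase that strips assembly factors, and Wdr12 (-0.69). In the order given, 9 of 13, 28 of 32 and 29 of 33 genes of these lists clearly exceeded background on every array. On SA-H array 4, Taf1b, Nop14 and Mdn1 lay at -4.36, -4.07 and -4.43. Untested members were as dim there, such as Rpl39l at -3.74 and Rpl3l at -4.89. Since probes bright in MOD alone were kept, the part of this filter in the lower calls was not tested. The H/ACA particle, which guides pseudouridylation, had 0 of 6 genes called, with a median of -0.12. The median of all genes was -0.02, with 11.7% called higher and 12.2% lower.

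Among 17 tested genes of mTOR signaling and TOP mRNA control, 0 were called higher and 3 lower, with a median of -0.34. Eif4e, the cap-binding protein, had 1.37, 1.20 and 1.55 in SA-H and 2.60, 2.36 and 2.54 in MOD, with no overlap (change -1.12 ± 0.23, SE, adjusted p = 0.072). Cnbp, a zinc finger protein reported to bind TOP mRNAs, and Maf1, a repressor of RNA polymerase III, were both called lower, at -1.18 and -0.84. At the same threshold 12.2% of all genes were called lower.

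Lists of marker genes differed in how many members were called, beside 11.7% called higher and 12.2% lower over all genes. Of 18 proliferation genes, 0 were called higher and 7 lower, and 14 changes lay below 0 (median -0.53). Their summed levels (log2) ran from 7.58 to 8.42 in SA-H and from 8.15 to 8.42 in MOD. Of 16 tested erythroid markers, 1 was called higher and 5 lower, and 11 changes lay below 0 (median -0.60). Their summed level ranged from 9.19 to 10.66 in SA-H, highest on SA-H array 4, and from 9.27 to 9.61 in MOD. In all these sums, signals are added before the log is taken, so the brightest genes of a list weigh most. Of 12 B cell markers 2 were called higher and 0 lower, but 7 changes lay below 0 and 5 above (median -0.06). Their sums ran from 6.95 to 7.20 in SA-H and from 6.80 to 7.14 in MOD. Of 14 tested T cell markers 0 were called (median change 0.02), with sums from 4.96 to 5.27 in SA-H and from 4.84 to 5.77 in MOD. Fat markers, with 5 of 7 called lower, summed to between 2.42 and 2.60 in SA-H and between 3.26 and 3.80 in MOD. Only 2 of these 7 clearly exceeded background on every array. On SA-H array 4, Cidec, Car3 and Adipoq lay at -4.79, -4.30 and -4.51, as dim as untested members there. The brighter Fabp4 had 1.94, 2.12 and 2.12 in SA-H and 3.07, 2.95 and 2.56 in MOD. Since probes bright in MOD alone were kept, the part of this filter in the fat marker calls was not tested. Of 12 pancreas markers 2 were bright enough to be tested, and Ins2 (insulin) was called higher, with 2.69, 0.82 and 0.53 in SA-H and -0.10, -2.07 and -1.56 in MOD (change 2.59 ± 0.70, SE). SA-H array 4 was highest for Ins2, as for most members. The pancreas sums were 1.03 to 2.73 in SA-H and -0.28 to 0.83 in MOD, which do not overlap. Of 12 liver markers 4 were tested, with Tat called higher (1.93) and Serpina1c lower (-0.71), and sums from 3.42 to 3.87 in SA-H and from 3.68 to 3.80 in MOD. The part of cell composition in the members' values was not tested, and fewer cells of a type cannot be told apart from less RNA per cell in such bulk samples.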

How the data were processed

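Per the file headers, the authors obtained the intensity values from Agilent Feature Extraction 11.0.1.1 (Cy3, 1 colour, background subtracted), and these were not normalized between arrays. The deposited log2 value table was used as an alternative only. How it was made is not given in the sources used here, and its scale and centring are unknown.

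Outlier spots were left out (172 to 634 per array), and 0 spots were saturated. The log2 signal was set against the 75th percentile of each array. A probe was kept if it exceeded background well on all 3 SA-H or all 3 MOD arrays (43.1% to 73.9% of spots were, per array), and the brightest kept probe stood for its gene. Symbols came through RefSeq (GRCm38.p6) accessions. Groups were compared with limma 3.58.1 (R 4.3.3), with Benjamini-Hochberg adjustment over 14818 genes and targets. Changes are SA-H minus MOD. The fit was tested on simulated data. Other steps used Python 3.11.15.

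Values per array are given for members called at an unadjusted p under 0.05, the 3 highest and 3 lowest changes, the paralogues, and Rplp0, Rplp1, Rplp2, Rpl5, Rpl11, Rps3, Rps6, Rps14, Rps19 and Rpl22; of other lists, up to 4 genes with the smallest p. Rpl4 was added after its values were seen, and some members are counted but not reported by name here. Members and lists were chosen with earlier results of these data known. Alternatives covered scaling, background correction (normexp with offset 50 on median signals, the files used here holding no mean signal), filters and probe choice. They also covered scan day, slide, the analysis of variance of the methods, and leaving out each array. Slide here means arrays that share a scan time, as MOD arrays 1 and 3 do, and SA-H array 4 and MOD array 2. It is not a label of the samples.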

Additional observations from a re-analysis of the deposited data

How the results depend on the processing

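Over all genes tested, 3531 were called, and the alternatives gave 2773 to 4805, apart from the fits that left out 1 array, which gave 1866 (without MOD array 1) to 3493. The members' higher calls, 14 as reported, ranged more widely. They numbered 25 with the 75th percentile taken over detected probes, 3 with median scaling, 2 with quantile normalization and 2 when centred on the members themselves. Without a filter on dim probes there were 4, and with the mean of the probes of a gene 9. Scan day as a block gave 38, slide as a random block 22 and the analysis of variance of the methods 5. With every probe by itself, the count is of probes rather than genes, and was 26 of 163. Leaving out 1 array gave 2 to 31 higher calls, the extremes being the fits that lacked MOD array 3 (2) and SA-H array 5 (31). The fits that lacked MOD array 1 and SA-H array 4 gave 3 and 4. Lower calls, 1 as reported, numbered 3 when centred on the members, 2 with normexp background, with probes well above background on all 6 arrays and with slide as a block, and 0 without a filter, with scan day as a block and in the value table. Leaving out 1 array gave 0 to 2.

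The members' median change, 0.54, was 0.012 with quantile normalization, 0.055 in the value table and -0.010 when centred on the members, where it is near 0 by construction. It kept its sign in the other fits and was 0.24 to 0.75 when 1 array was left out. Median scaling moved the median of all genes to -0.34 and that of the members to 0.22. It split the calls over all genes into 1160 higher and 2201 lower, against 1730 and 1801 as reported. The split was 2121 higher and 1339 lower with the 75th percentile over detected probes, and 651 higher and 4071 lower when centred on the members, which moved the median of all genes to -0.58. In the value table, 10 members were called higher.

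The value table matched the scanner values loosely. After centring each of 14341 probes, the columns of SA-H arrays 4, 5 and 6 had r of 0.16, 0.03 and 0.35 with the scanner values of the same array, and those of MOD arrays 1, 2 and 3 had 0.47, 0.40 and -0.26. The column of MOD array 3 was closest to the scanner values of SA-H array 4 (r = 0.31), that of SA-H array 4 to SA-H array 5 (0.26) and that of SA-H array 5 to SA-H array 6 (0.25). Whether columns were exchanged could not be settled, so calls and signs from this table may not compare the labelled groups.

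For the named members, the fit of every probe by itself reads the same brightest probe again, so its 28 kept pairs are no separate check. With these included, 354 of 531 pairs of a named member and an alternative kept the direction and the side of the threshold. The call was lost in 125 pairs and gained in 26, and 26 changed sign. In the value table these were Rps27l (-0.29), Rps14 (-0.17), Rpl7a (-0.12), Rpl36al (-0.10), Rplp0 (-0.10), Rpl10a (-0.057), Rpl37a (-0.038), Rps25 (-0.015) and Rplp1 (0.071). With median scaling they were Rpl22l1 (-0.24), Rps27l (-0.11) and Rpl5 (-0.0075). With quantile normalization they were Rpl11 (-0.18), Rpl22l1 (-0.12) and Rps6 (-0.080). Centred on the members they were Rpl22l1 (-0.47), Rps27l (-0.34), Rpl36al (-0.26), Rpl5 (-0.24), Rpl11 (-0.21), Rps6 (-0.18) and Rps19 (-0.15). With normexp it was Rpl22l1 (-0.17). When 1 array was left out, Rpl22l1 ran between -0.18 (without SA-H array 4) and 0.33, with -0.01 without MOD array 3, and Rpl36al between -0.30 (without SA-H array 4) and 1.33. The causes were not tested.

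No paired analysis was possible because the groups share no replicate numbers in the array titles. Arrays were matched only by scanning day, as given above, and by shared scan time, which stands for the slide. With 3 arrays a group, the number of arrays limits the precision.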
